A study of Mus musculus with 16 samples.

Results

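The clustered protocadherin genes of the mouse form 3 neighbouring groups on chromosome 18, named alpha, beta and gamma. They were described here by the peaks of H3K27me3, the trimethylation of lysine 27 of histone H3, that lie over them in splenic B cells. Members were the genes on chromosome 18 of the GRCm38 gene table whose symbol begins with Pcdha, Pcdhb or Pcdhg, which gave 58 of 49997 genes. Of these, 14 belonged to alpha, 22 to beta and 22 to gamma, and 1 of the gamma genes, Pcdhgb8, is annotated as a pseudogene.

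Chromatin immunoprecipitation and sequencing (ChIP-seq) had been carried out on B cells from the spleens of C57BL/6 mice aged 6 to 8 weeks, isolated with CD43 microbeads. The donors were wild type (WT) or an Ifih1/Rigi/cGAS triple mutant, called the mutant below, which carries mutations in 3 genes for cytosolic sensors of nucleic acids. All cultures contained BAFF and IL-4, cytokines that support B cells, and ran for 48 h in the solvent DMSO or in 1 µM GSK343, an inhibitor of the methyltransferase EZH2. The 16 samples formed 8 groups of 2, a ChIP group and an input group (sonicated chromatin without immunoprecipitation) for each genotype and treatment. The labels do not say whether the 2 replicates came from separate mice or whether mice were pooled.

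Values came from 4 broad peak lists that the authors deposited, with a single list per combination of genotype and treatment. The peak names refer to pooled duplicates, while the prefix of the mutant names ends in 1, so the mutant lists may rest on replicate 1 alone. With 1 list per group there was no spread between replicates, and no difference below could be tested. The read depth behind each list is not known, and a list can be longer because more reads were sequenced or because the signal was stronger. The WT DMSO list held 39495 peaks over 84.3 Mb, the WT GSK343 list 11903 peaks over 21.1 Mb, the mutant DMSO list 49803 peaks over 134 Mb and the mutant GSK343 list 10847 peaks over 17.0 Mb. The B cell genes Cd79a, Cd79b, Ms4a1, Pax5, Ebf1, Cd22, Blk, Ighm and Ptprc carried no peak in any list, while Cd14, the only one of 4 myeloid genes with a peak, was covered over 100% of its length in all 4.

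Clustered protocadherins are cell surface adhesion proteins of the cadherin superfamily, best known from neurons, where each cell uses its own small set of them and so gains an identity that its neighbours can recognise. Each alpha and gamma gene has its own promoter and its own large first exon, which is spliced to constant exons shared by the whole cluster, while each beta gene is a single exon. The last genes of the alpha and gamma clusters, called C-type, are regulated differently from the others and are expressed in most neurons. H3K27me3 is the product of Polycomb repressive complex 2, whose catalytic subunit is EZH2 or EZH1, and it marks many developmental genes that a cell type does not use.

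Because the genes of a cluster share their constant exons, their annotated bodies overlap. The 14 alpha genes ended within 1.24 kb of one another although their starts spread over 213 kb, and the 22 gamma genes ended within 1.38 kb although their starts spread over 158 kb. Each alpha or gamma gene was therefore measured over its first 3 kb and each beta gene over its whole length, which ranged from 2.34 to 5.27 kb. This stretch is called the gene's own window, and a member counted as overlapped when a peak covered at least 1 base of it.

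The 3 clusters differed from one another in B cells: peaks lay over the gamma cluster and were scarce or absent over alpha and beta. The gamma cluster (GRCm38, chromosome 18, 37661775 to 37841873) was covered over 26.2% of its bases in the WT DMSO list and 40.7% in the mutant DMSO list. The alpha cluster (36930285 to 37188897) was covered over 0.703% and 1.31% in the same lists. In the beta cluster (37264998 to 37521419) there was no peak in any of the 4 lists. With GSK343 the gamma cluster was covered over 3.28% in WT and 2.59% in the mutant, and the alpha cluster over 0.488% and 0.540%.

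**Figure D1:**
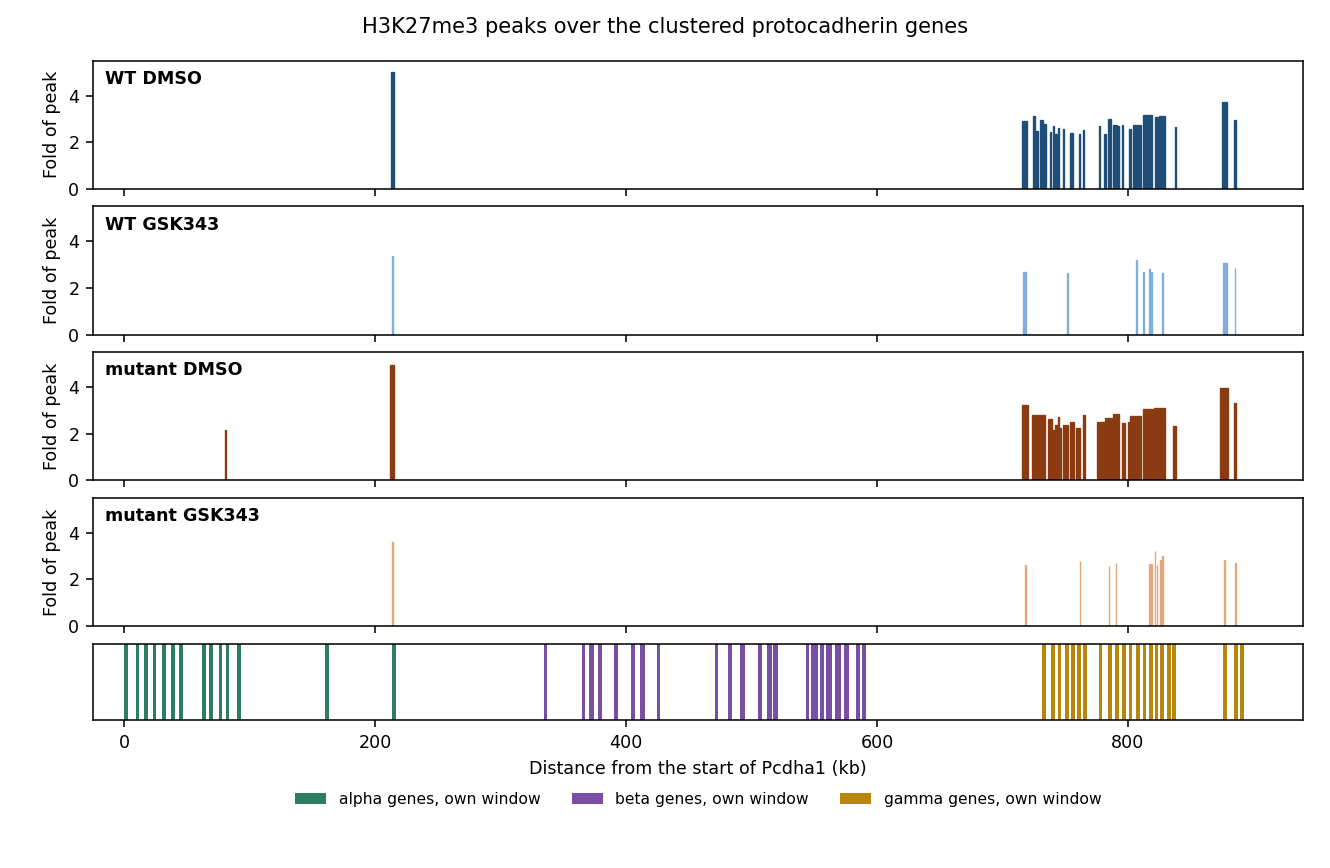
Peaks of H3K27me3 along the 3 protocadherin clusters in the 4 lists; the x axis is the distance in kb from the start of Pcdha1, bar height is the authors' fold of each peak, and the lowest panel gives the members' own windows. Narrow peaks are drawn slightly wider than they are so that they can be seen. Peaks lay over the gamma cluster, before it and at Pcdhac2, the last alpha gene, with none over the beta cluster.

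Counted by gene, 20 of the 58 members were overlapped in WT DMSO and 22 in mutant DMSO, which is 34.5% and 37.9%. The same count over the first 3 kb of 17274 protein-coding genes gave 24.5% in WT DMSO and 27.4% in mutant DMSO. These are the genes of known strand, none of them on the members' chromosome. With GSK343, 8 members (13.8%) were overlapped in WT and 9 (15.5%) in the mutant, against 16.7% and 15.8% of all those genes. Read over all members, these shares lay moderately above the background with DMSO and slightly below it with GSK343, and the average hid the split between clusters. In the gamma cluster 19 of 22 genes were overlapped in WT DMSO (86.4%) and 20 of 22 in mutant DMSO (90.9%). With GSK343 the gamma counts were 7 (31.8%) in WT and 8 (36.4%) in the mutant. The median own-window coverage over all 58 members was 0% in every list, as it was over the 17274 genes, whereas over the gamma genes it was 45.6% in WT DMSO and 74.3% in mutant DMSO.

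**Figure D2:**
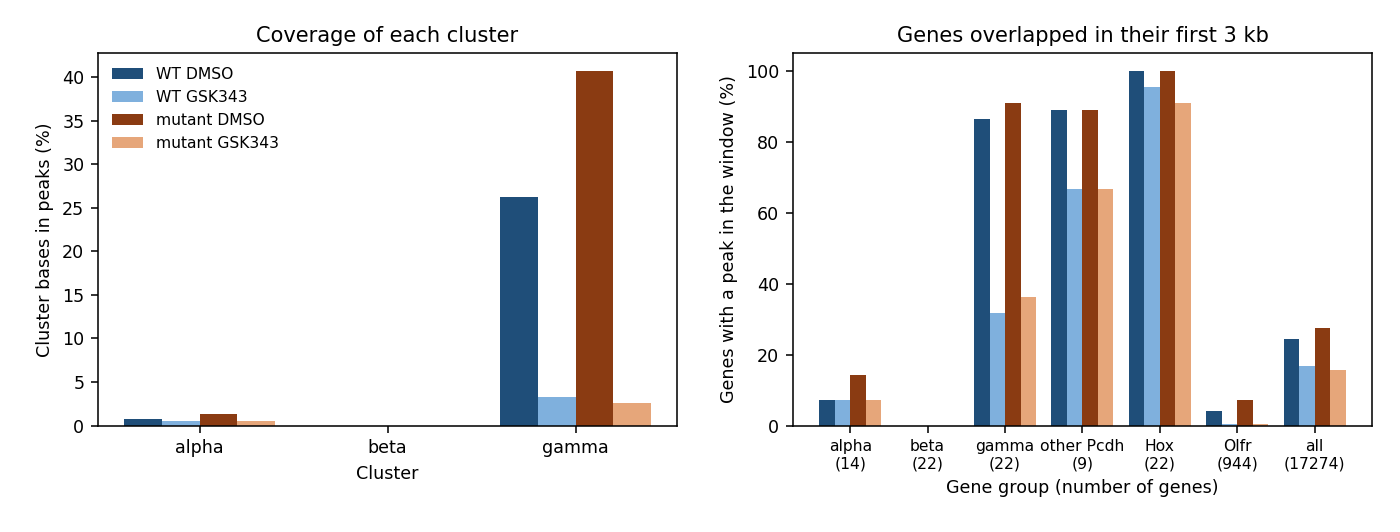
Left, percent of the bases of each cluster that lay in peaks; right, percent of the genes of each group with a peak in the own window or, outside the clusters, in the first 3 kb, with the number of genes in brackets. Bars are single pooled lists and have no error. The gamma cluster reached 26.2% and 40.7% in the DMSO lists and the beta cluster was at 0 in each list.

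In the alpha cluster a single gene was overlapped in 3 of the lists and 2 genes in mutant DMSO. Pcdhac2, a C-type gene and the last of the cluster, was overlapped in all 4 lists, with own-window coverage in WT of 38.4% with DMSO and 30.6% with GSK343, and in the mutant of 50.4% and 33.7%. Coverage with GSK343 was lower than with DMSO in each genotype, and it was highest in mutant DMSO. In WT DMSO the peak ran from 37143013 to 37144829, a width of 1817 bp, and in WT GSK343 from 37143334 to 37144594, a width of 1261 bp. In the mutant it was 2993 bp wide with DMSO and 1396 bp wide with GSK343. In each list it spanned the annotated start of the gene, reaching from 665 bp before it to 1152 bp after it in WT DMSO and from 344 bp before it to 917 bp after it in WT GSK343.

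This was also the peak with the greatest fold among those over the members, a ratio of ChIP over background that the authors' peak caller wrote for each peak. The fold was 5.01 in WT DMSO, above 99.9% of the peaks of that list, and 4.94 in mutant DMSO, above 99.7%. With GSK343 it was 3.37 in WT, above 82.1% of that list, and 3.61 in the mutant, above 96.1%.

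The rest of the alpha cluster was nearly free of peaks. Pcdhac1, the other alpha C-type gene, carried no peak in any list, and the nearest one lay 49.9 kb away in WT DMSO and 49.1 kb away in mutant DMSO. Of the 12 alternate alpha genes, those that are not C-type, 11 carried no peak in any list, among them Pcdha1, the first of the cluster. The exception was Pcdha11, which was covered over 4.13% of its own window in mutant DMSO and 0% in the other 3 lists. That peak was 398 bp wide with a fold of 2.14, below the median fold of its list, 2.33. The constant part of the cluster, 42.2 kb long, held no peak in any list.

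None of the 22 beta genes was overlapped, from Pcdhb1 at one end to Pcdhb22 at the other. The stretch without a peak that contains them ran from the Pcdhac2 peak to the first peak before the gamma cluster, and it measured 501 kb and 502 kb in WT with DMSO and GSK343, and 500 kb and 504 kb in the mutant. Its ends were therefore set by nearly the same peaks in the 4 lists. Beta genes are close relatives of one another, and whether reads that match several of them were discarded was not tested. The median distance between neighbouring peaks was 4.46 kb in the WT DMSO list and 3.82 kb in the mutant DMSO list. Longer gaps were nevertheless present elsewhere in the genome, 1000 of 39443 in WT DMSO and 913 of 49747 in mutant DMSO. Those longer gaps held 52.6% of the total gap length in WT DMSO and 48.5% in mutant DMSO. With GSK343 the longer gaps were 1176 of 11871 in WT and 1268 of 10799 in the mutant, with 70.9% and 73.9% of the gap length. By length, gaps longer than the beta stretch were thus common in each list. Slc25a2 and Taf7, a mitochondrial carrier gene and a gene of the general transcription machinery that lie between the beta and gamma clusters, also carried no peak.

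The gamma cluster held 24 peaks over 47.2 kb in WT DMSO and 22 peaks over 73.3 kb in mutant DMSO. Peaks began before the first gamma gene, 15.8 kb upstream of Pcdhga1 in WT DMSO and 16.2 kb upstream in mutant DMSO. That was 1.75 kb and 1.32 kb past the end of Taf7. The 25 kb before Pcdhga1 were covered over 33.9% in WT DMSO and 52.5% in mutant DMSO, and with GSK343 over 8.10% in WT and 1.05% in the mutant. At the other side the last peak ended 3.08 kb before the start of Pcdhgc5 in WT DMSO and 3.10 kb before it in mutant DMSO. The constant part of the gamma cluster, 19.3 kb long, and the 25 kb after the cluster held no peak in any list. Peaks thus lay over most of the variable genes and the stretch leading to them, and they ended before the last C-type gene. They were not continuous: from the first to the last, they covered 32.6% of the span in WT DMSO and 50.6% in mutant DMSO. Between Pcdhga12 and Pcdhgc3 no peak lay from 37768430 to 37805356 in WT DMSO, or from 37768516 to 37803910 in mutant DMSO.

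**Figure D3:**
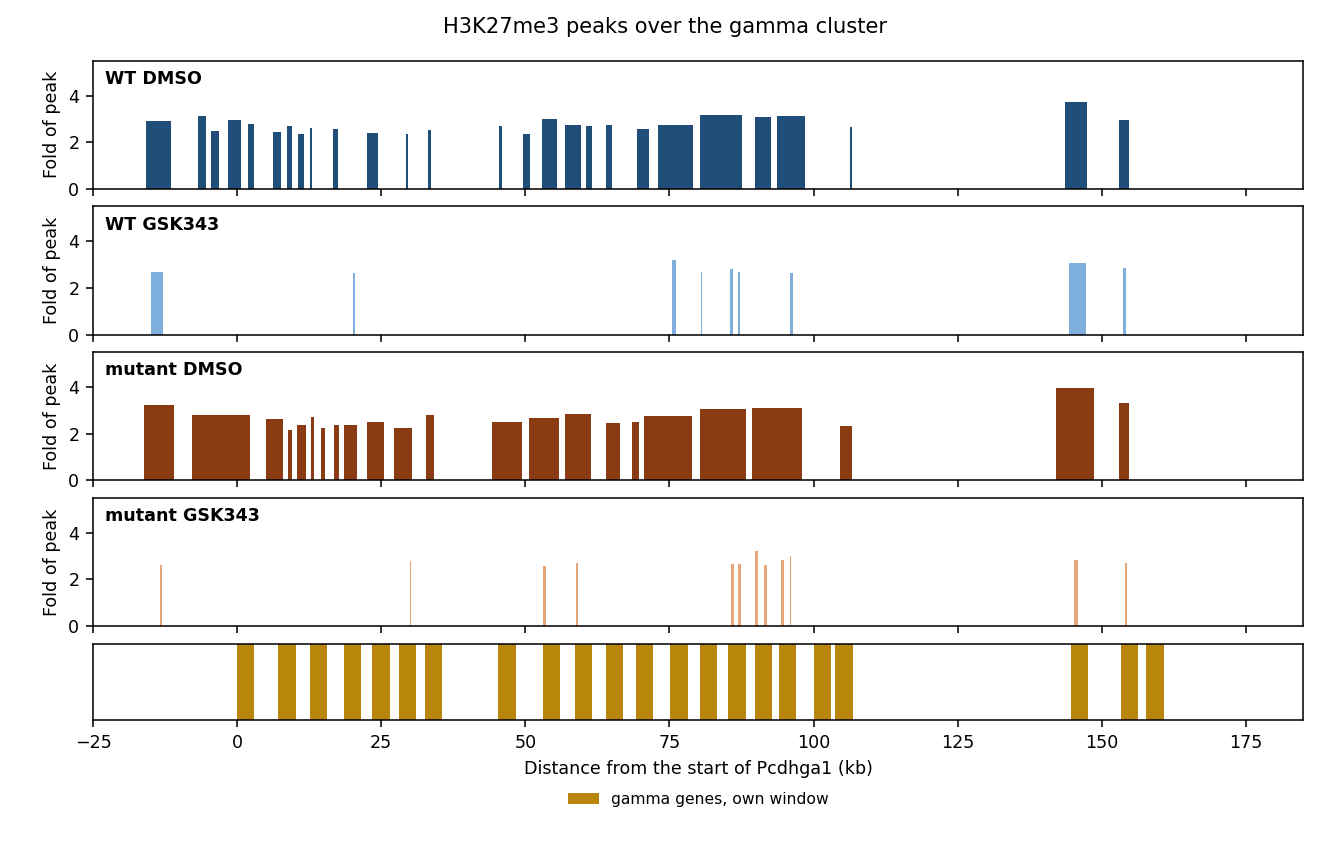
Peaks over the gamma cluster and the 25 kb before it in the 4 lists; the x axis is the distance in kb from the start of Pcdhga1, bar height is the authors' fold, and the lowest panel gives the own windows of the 22 gamma genes. Bars are drawn to their true width. The 24 peaks of WT DMSO had a median width of 1249 bp and the 8 peaks of WT GSK343 one of 429 bp.

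Within the gamma cluster, the A genes, the most numerous class, were the only class in which every gene was overlapped with DMSO. All 12 were overlapped in both DMSO lists, with own-window coverage from 10.7% to 100% in WT DMSO and from 44.8% to 100% in mutant DMSO. The mean over the 12 genes was 49.1% in WT DMSO and 77.4% in mutant DMSO. With GSK343, 3 of the 12 were overlapped in each genotype and the means were 4.87% in WT and 5.91% in the mutant. Pcdhga1, the first gene of the cluster, was covered over 60.4% in WT DMSO and 74.9% in mutant DMSO, and 0% in both GSK343 lists. Pcdhga12, the last A gene, gave 10.7% in WT DMSO and 70.2% in mutant DMSO, again with 0% in both GSK343 lists.

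The B genes lie interspersed among the A genes. Of the 7, 5 were overlapped in WT DMSO and 6 in mutant DMSO, with mean coverage of 48.9% and 72.8%, values near those of the A genes. The medians were 65.6% and 73.7%, against 39.6% and 77.6% for the A genes. Pcdhgb8, the pseudogene, carried no peak in any list, although the nearest peak lay only 1.51 kb away in WT DMSO. Pcdhgb1 was the only gamma gene without a peak in WT DMSO but with one elsewhere, at 10.8% in WT GSK343 and 70.8% in mutant DMSO, with 0% in mutant GSK343.

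The 3 gamma C-type genes differed among themselves. Pcdhgc3 was covered in WT over 96.0% of its own window with DMSO and 88.0% with GSK343, and in the mutant over 100% and 25.4%. It was the only member covered over at least 50% of its window in a GSK343 list. Its peak measured 3935 bp with DMSO and 2961 bp with GSK343 in WT, and 6580 bp and 762 bp in the mutant. With folds of 3.72 in WT DMSO and 3.95 in mutant DMSO it stood above 95.3% and 96.2% of those lists. With GSK343 the folds were 3.09 in WT, above 62.8% of that list, and 2.82 in the mutant, above 38.2%. Pcdhgc4 was covered over 46.3% and 19.2% in WT with DMSO and GSK343, and over 45.4% and 11.2% in the mutant. Pcdhgc5, the last gene of the cluster, carried no peak in any list, and the nearest lay between 3.08 and 3.49 kb away.

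High coverage with DMSO was shared by 5 neighbouring genes, Pcdhga9, Pcdhgb6, Pcdhga10, Pcdhgb7 and Pcdhga11, a group picked out after its values had been seen. In WT DMSO their own-window coverage ran from 76.8% to 100%, and in mutant DMSO all 5 were at 100%. Other genes reached similar values, among them Pcdhgc3 in both DMSO lists and Pcdhga6 in mutant DMSO. With GSK343 it ran from 0% to 24.0% in WT and from 0% to 34.5% in the mutant. The highest values of WT DMSO were the 100% of Pcdhga9 and Pcdhga11 and the 99.4% of Pcdhgb6. These genes share peaks, so their values are not independent of one another: the mutant DMSO peak over Pcdhgb7 and Pcdhga11 was a single one, 8.72 kb wide.

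**Figure D4:**
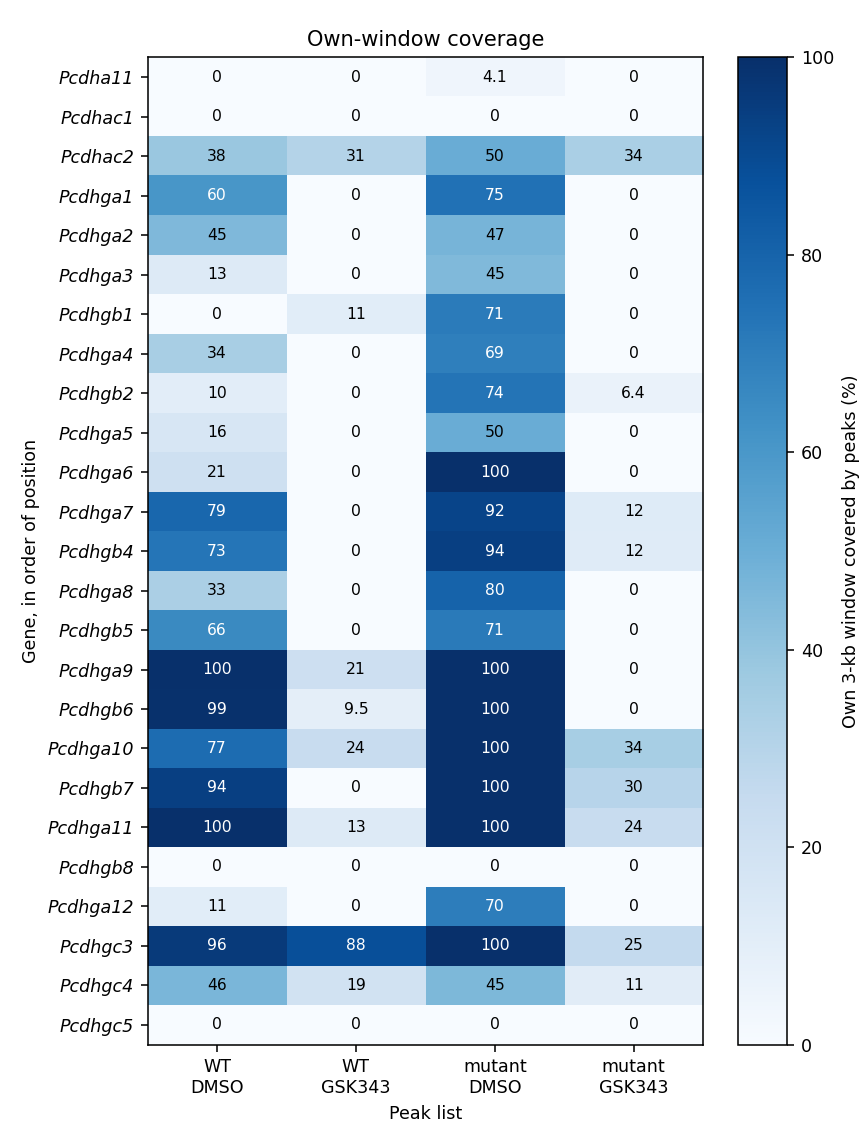
Percent of the own 3-kb window covered by peaks for the 22 gamma genes and for Pcdha11, Pcdhac1 and Pcdhac2, in order of position, in the 4 lists; darker cells are more fully covered and each cell gives its value. The 33 members left out (11 alpha and 22 beta genes) were at 0 in each list. Of the 22 gamma genes, 13 in WT and 12 in the mutant were covered with DMSO and at 0 with GSK343, and 9 were so in both genotypes. Pcdhac2, Pcdhga10, Pcdhga11, Pcdhgc3 and Pcdhgc4 had some coverage in each list.

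Peaks of the gamma cluster followed the starts of its genes. Own windows made up 36.6% of the bases of the cluster but 68.3% of the covered bases in WT DMSO and 64.8% in mutant DMSO. The remainder of the cluster, between the own windows and in the constant part, was covered over 13.1% in WT DMSO and 22.6% in mutant DMSO. Averaged over the 22 genes, coverage in WT DMSO was 35.5% in the kb before the start, 64.7% in the first kb after it, 44.1% in the next, 37.7% in the third and 18.2% in the fourth. In mutant DMSO the same 5 stretches gave 58.4%, 81.4%, 76.6%, 58.1% and 36.6%. The first kb of the gene was thus the most covered of the 5 in both lists. With GSK343 the peaks within the cluster lay almost wholly inside the own windows. These held 94.5% of the covered bases of the cluster in WT and 100.0% in the mutant. The kb before the start was covered over 1.46% in WT and 0.00455% in the mutant. Outside the cluster, each GSK343 list also held a peak before Pcdhga1, 2025 bp wide in WT and 263 bp wide in the mutant. With GSK343 the first kb was covered over 13.5% in WT and 14.1% in the mutant.

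**Figure D5:**
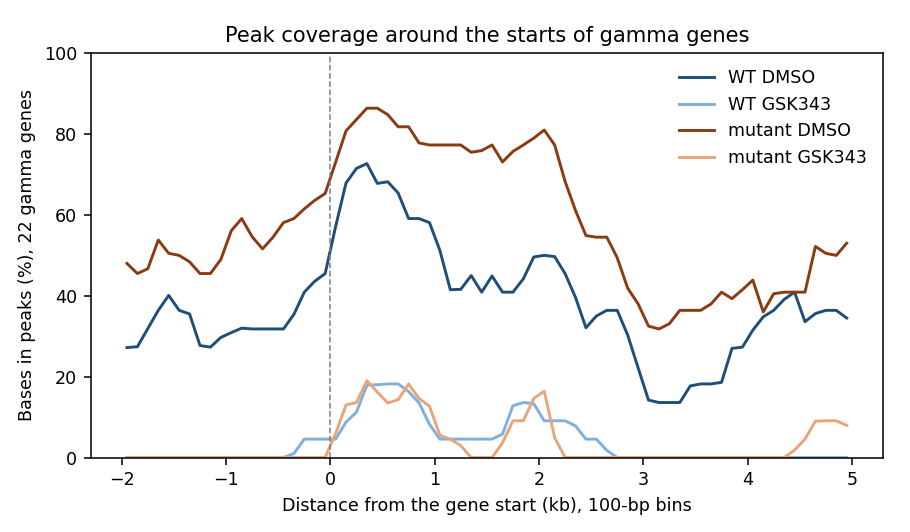
Percent of bases in peaks around the starts of the 22 gamma genes, in bins of 100 bp, against the distance from the gene start in kb, with 1 line for each list. Neighbouring genes are close enough for the outer bins of one to enter the next. Coverage was highest in the first kb after the start in each list, at 64.7% in WT DMSO and 13.5% in WT GSK343.

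The comparison of treatments asks how the marked genes differed when EZH2 was inhibited. Over the 3 clusters together, the length in peaks was 49.0 kb with DMSO and 7.16 kb with GSK343 in WT, and 76.7 kb and 6.05 kb in the mutant. The ratio of GSK343 to DMSO was 0.146 in WT, where the whole list gave 0.250, and 0.0789 in the mutant, where the whole list gave 0.126. Coverage of the clusters was therefore lower with GSK343 by more than the lists as a whole in both genotypes, without a replicate to say how far such ratios vary. Under other settings for peaks the cluster ratios ran from 0.0743 to 0.236 in WT and from 0.0190 to 0.137 in the mutant. The whole-list ratios were not recomputed there, so whether the difference holds under them was not tested.

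Gene by gene, 13 of the 20 members overlapped in WT DMSO had no peak in WT GSK343, which is 65.0%. Among the protein-coding genes of known strand overlapped over the first 3 kb in WT DMSO the share was 32.4%. In the mutant 13 of 22 members (59.1%) had no peak with GSK343, against 42.7% of all such genes. All 13 in WT were gamma A or B genes, as were 12 of the 13 in the mutant, the other being Pcdha11. Members were not matched to the other genes for coverage with DMSO, and neighbouring members share peaks. The overlapped genes of known strand had a median coverage of 82.1% in WT DMSO and 92.7% in mutant DMSO. The medians of the 22 gamma genes, those at 0% included, were 45.6% and 74.3%. By type of gene, 0 of the 3 C-type genes overlapped with DMSO were without a peak with GSK343 in either genotype, against 13 of 17 other members in WT (76.5%) and 13 of 19 in the mutant (68.4%). The numbers of C-type genes are small, and the difference was not tested. Of the 3, Pcdhac2 was still overlapped with GSK343 under each of 4 stricter limits on peaks (a q-value of at most 0.01, a −log10 p-value of at least 5, a fold of at least 3, or a width of at least 1 kb). Pcdhgc3 was still overlapped in WT under 3 of these limits and in the mutant under none, and Pcdhgc4 in neither genotype under any. Among the A and B genes, Pcdhga9 in WT and Pcdhgb7 and Pcdhga11 in the mutant were still overlapped with GSK343 under the limits on q-value, p-value and fold, and none under that on width. Under these limits C-type genes were thus among both those still overlapped and those not.

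Members differed in how much coverage separated the treatments. In WT the widest difference was at Pcdhgb7, with 94.0% in DMSO and 0% in GSK343. Pcdhgb6 came next, with 99.4% and 9.53%, and then Pcdhga11, with 100% and 13.1%. In the mutant, Pcdhga6, Pcdhga9 and Pcdhgb6 each had 100% with DMSO and 0% with GSK343. These genes were among the most fully covered with DMSO, so they also had the most coverage to lose.

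Only 5 members were overlapped in all 4 lists: Pcdhac2, Pcdhga10, Pcdhga11, Pcdhgc3 and Pcdhgc4. Of these, 3 were C-type, out of 5 C-type genes, and 2 were not, out of 53 other members. Most of the 53 had no peak to begin with: 17 were overlapped in WT DMSO and 19 in mutant DMSO. The share of all protein-coding genes overlapped in all 4 lists was not counted, nor was their share with any of the other patterns below. Whether these patterns are usual for genes with peaks is therefore not shown. Pcdhga10 was covered in WT over 76.8% with DMSO and 24.0% with GSK343, and in the mutant over 100% and 34.5%. A further 9 members were overlapped in both DMSO lists and in neither GSK343 list: Pcdhga1, Pcdhga2, Pcdhga3, Pcdhga4, Pcdhga5, Pcdhga6, Pcdhga8, Pcdhgb5 and Pcdhga12. All but Pcdhga12 of these lie before Pcdhga9 in the cluster. Pcdhgb2, Pcdhga7, Pcdhgb4 and Pcdhgb7 kept a peak with GSK343 in the mutant and not in WT, and Pcdhga9 and Pcdhgb6 kept one in WT and not in the mutant. Pcdhgb1 was overlapped in WT GSK343 and mutant DMSO, and Pcdha11 in mutant DMSO alone. The remaining 36 members, including all beta genes, carried no peak in any list.

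In the gamma cluster most peaks called with GSK343 were narrow pieces of the stretches covered with DMSO. The median width of gamma peaks was 1249 bp with DMSO and 429 bp with GSK343 in WT, and 2719 bp and 431 bp in the mutant. Over the whole lists the medians were 936 bp and 1052 bp in WT, and 1125 bp and 915 bp in the mutant. The widest gamma peak of the mutant was 10146 bp with DMSO and 762 bp with GSK343. Of the 8 gamma peaks in WT GSK343, 7 overlapped a WT DMSO peak, the exception lying in Pcdhgb1, and all 11 in mutant GSK343 overlapped a mutant DMSO peak. Of the length covered with GSK343, 94.5% in WT and 100% in the mutant was also covered with DMSO. The same shares over the whole lists were not measured, so whether the gamma cluster differs from them is not shown. The DMSO peaks overlapped by a GSK343 peak had a higher median width and fold than the others. In WT DMSO, 5 such peaks had a median width of 4839 bp and a median fold of 3.14, against 1104 bp and 2.66 for the 19 others. In mutant DMSO, 7 such peaks had medians of 5230 bp and 3.06, against 2107 bp and 2.48 for the 15 others, although the widest peak, of 10146 bp, was not overlapped. A wider peak has more room to be overlapped, and the part of width in this comparison was not tested.

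The comparison of genotypes asks whether mutation of the 3 sensor genes went with another distribution of the mark. With DMSO the mutant had more of the clusters in peaks, by a ratio of 1.57, close to the ratio of 1.60 over the whole lists. Own-window coverage was higher in the mutant at 17 of the 22 gamma genes, equal at 4 and higher in WT at 1, Pcdhgc4, by 46.3% against 45.4%. The 4 equal genes were Pcdhgb8 and Pcdhgc5, at 0% in both lists, and Pcdhga9 and Pcdhga11, at 100% in both. The same split over all protein-coding genes was not counted. All 24 gamma peaks of WT DMSO were overlapped in mutant DMSO. The length shared by the 2 lists, 43.2 kb, was 91.7% of what WT DMSO covered and 59.0% of what mutant DMSO covered. The stretches covered in mutant DMSO thus contained nearly all of those covered in WT DMSO and extended beyond them. The same shares over all peaks of the lists were not measured, so this cannot be called particular to the gamma cluster. The examples with the widest gap were Pcdhga6, at 21.0% in WT DMSO and 100% in mutant DMSO, Pcdhgb1, at 0% and 70.8%, and Pcdhgb2, at 10.3% and 73.7%.

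With GSK343 the ratio of mutant to WT was 0.846 over the 3 clusters and 0.805 over the whole lists. Its direction did not hold: it was 1.08 when the −log10 p-value had to reach 5, 1.72 after peaks less than 3 kb apart were merged, and 0.331 among peaks of at least 1 kb. The gamma genes overlapped were 7 in WT and 8 in the mutant, and 4 of them were the same. Shared length was 1.89 kb, which was 32.0% of the WT GSK343 coverage and 40.5% of the mutant GSK343 coverage. The single largest contribution to the WT list was Pcdhgc3, at 88.0% against 25.4% in the mutant. With so few and such narrow peaks, which A and B genes were overlapped differed between the genotypes, and no replicate shows how often it would differ within one.

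Protocadherin genes elsewhere in the genome give a comparison by family. These encode adhesion proteins of the same family, each from its own locus. Of 9 such genes with a strand in the promoter table, 8 were overlapped over the first 3 kb in each DMSO list (88.9%) and 6 in each GSK343 list (66.7%). With DMSO this share was near that of the gamma genes, and with GSK343 it was higher than theirs. The median coverage of the 9 windows was 100% in both DMSO lists, 35.0% in WT GSK343 and 61.2% in mutant GSK343, where the gamma genes had medians of 0%. Pcdh7 was covered over 100% of its first 3 kb in every list and Pcdh10 over 100% in all but WT GSK343, where it had 35.0%. By whole gene body, 10 of 12 of these genes were overlapped in WT with DMSO and 8 with GSK343, against 31.8% and 21.4% of 21631 protein-coding genes. In the mutant 11 and 9 were overlapped, against 34.6% and 20.3%. Pcdh20 carried no peak in any list. Pcdh1 and Pcdh12 lie on chromosome 18 too. The body of Pcdh1 was covered over 47.8% with DMSO and 32.1% with GSK343 in WT, and that of Pcdh12 over 50.1% and 3.51%.

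A pair of other clustered families, each counted over its genes of known strand, bracketed these values. Of 22 Hox genes, developmental transcription factors and classical Polycomb targets, 22 were overlapped over the first 3 kb in each DMSO list, 21 in WT GSK343 and 20 in mutant GSK343. Of 944 olfactory receptor genes, large clusters of receptors that are chosen singly in sensory neurons, 40 (4.24%) were overlapped with DMSO in WT and 4 (0.424%) with GSK343. In the mutant the counts were 68 (7.20%) with DMSO and 5 (0.530%) with GSK343. The Hox windows were more fully covered than those of the gamma genes, with a mean of 95.3% against 48.8% in WT DMSO. By the count of genes overlapped, the gamma genes stood near the Hox genes with DMSO and below them with GSK343, and the beta genes, with 0 of 22, were nearer to the olfactory receptors in each list.

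Most genes that flank the clusters were free of called peaks on both sides. Wdr55, Dnd1, Hars, Hars2 and Zmat2 before the alpha cluster, and Diaph1, Hdac3, Rell2 and Fchsd1 after the gamma cluster, had 0% of their bodies in peaks in all 4 lists. Arap3, farther downstream, was covered over 19.3% and 5.56% in WT with DMSO and GSK343, and over 34.0% and 0% in the mutant. Of 13 genes known to regulate the choice or the silencing of clustered protocadherins, 4 carried a peak on the gene body in each DMSO list, a share near the 31.8% and 34.6% of all protein-coding genes. Ctcf, whose product loops the protocadherin promoters to their enhancers, and the cohesin genes Rad21, Smc1a and Smc3 carried none in any list, nor did Smchd1, which encodes a silencing factor of these clusters. Lrif1, whose product binds SMCHD1, was covered over 8.25% in WT DMSO and 24.3% in mutant DMSO, and 0% in both GSK343 lists. Setdb1, which encodes a methyltransferase for another histone lysine, was covered over 3.85% and 2.64% in WT with DMSO and GSK343, and over 2.79% and 0% in the mutant.

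Genes typical of neurons, the cells in which clustered protocadherins are best known, were looked at in the same way. Of 4 such genes, 3 were overlapped on the gene body in WT with DMSO and 2 with GSK343, and 4 and 2 in the mutant. The share over all protein-coding gene bodies was 31.8% and 21.4% in WT and 34.6% and 20.3% in the mutant. Rbfox3 and Tubb3, a splicing regulator and a tubulin of neurons, were overlapped in all 4 lists. Of 5 T cell genes, 2 (Cd3e and Cd4) were overlapped in each DMSO list, 1 in WT GSK343 and 0 in mutant GSK343, counts too small to be set apart from those shares. No expression data were analysed here, so which protocadherins the B cells transcribed is not shown.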

How the data were processed

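ChIP and input libraries of 16 samples were read through 4 deposited lists of broad peaks. Per the submitters' processing notes, the tools were bcl2fastq, Bowtie2 2.4.2, SAMtools 1.12, MACS2 2.2.7.1, bedtools 2.29.2 and deepTools 3.5.1, and the build was mm10. Their settings, and how reads that match several near-identical protocadherin exons were treated, are not given in the sources used here. Such reads could change coverage most where exons resemble each other. Each list was tied to its group by the prefix of its peak names, and no column of single samples was used. Peak positions, in bp, are the deposited values. The deposited fold per peak is a linear ratio of ChIP over background, and the −log10 p-value and q-value are likewise the authors' deposited values; all served only to rank, filter or describe peaks of the same list. The deposited score column was not used.

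Gene positions came from a RefSeq table of GRCm38.p6 that gives no strand, so the direction of the alpha and gamma genes was read from their shared ends. For other genes strand came from a RefSeq promoter table, which left 17274 of 21631 protein-coding genes. That table held no gene on the members' chromosome. Covered bases were counted in Python 3.11.15 with numpy 2.4.6 and pandas 2.3.3, with a minimum overlap of 1 bp, after overlapping peaks were merged. The counts were tested on simulated peaks and checked against bedtools 2.31.1 on the members' windows, where 232 of 232 agreed exactly. Read depth is unknown, so no interval or detection floor is given. Values were named for the C-type genes, the first and last genes of each cluster, the members with the highest or lowest coverage, those that differed most between treatments, and those with a peak in all lists or in 1. Genes named for comparison were flanking genes, other protocadherins and known regulators. Members and lists were chosen with earlier results of these data known. Positions count from 1. Alternatives varied the peak threshold, peak width, merging, window and overlap rule. No sequence is printed for these genes.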

Additional observations from a re-analysis of the deposited data

How the results depend on the processing

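Each count, coverage and ratio was recomputed under 11 other settings, which gave 180 values: 132 stayed within 1.5 times of the reported value and on the same side of 1 for ratios, 46 moved farther and 2 ratios crossed 1. Many of the 132 were values of 0% that stayed at 0%, namely beta coverage and the median over all members. Settings that only remove peaks could not raise these, so the 132 overstate how stable the other values were. No setting could give the beta cluster a peak, since those that changed the peaks removed them or merged near ones. Keeping the same number of top peaks in each list, or windows of 1 kb, 5 kb or 1.5 kb on each side of the start, left each value within 1.5 times, although members overlapped fell to 14 in WT DMSO and 15 in mutant DMSO with the same number of peaks. Series of 4 values below give WT with DMSO and with GSK343, then the mutant in the same order. A −log10 p-value of at least 5 left 9, 2, 13 and 3 members overlapped and gamma coverage of 13.2%, 0.354%, 23.4% and 0.363%, with GSK343 to DMSO ratios of 0.0743 in WT and 0.0455 in the mutant and a reversed mutant to WT ratio with GSK343 of 1.08. A fold of at least 3 left 6, 3, 7 and 3 members and 10.4%, 2.00%, 13.8% and 0.363%, with 0.236 for GSK343 to DMSO in WT and 0.422 for mutant to WT with GSK343. A q-value of at most 0.01 left 3 members in each GSK343 list, gamma coverage of 2.00% and 0.363% there, a GSK343 to DMSO ratio of 0.0314 in the mutant and a mutant to WT ratio with GSK343 of 0.422. Peaks of at least 1 kb left 2 and 1 members in the WT and mutant GSK343 lists, gamma coverage of 1.64% and 0%, GSK343 to DMSO ratios of 0.0935 in WT and 0.0190 in the mutant, and 0.331 for mutant to WT with GSK343. Merging peaks less than 3 kb apart raised gamma coverage in mutant GSK343 to 6.98%, the GSK343 to DMSO ratio in the mutant to 0.137 and the mutant to WT ratio with GSK343 to 1.72, which reversed it. Requiring 50% of the window left 10, 1 and 0 members in WT DMSO, WT GSK343 and mutant GSK343. Counting the whole gene body gave 35 members in each list, since overlapping alpha and gamma bodies contain the same peaks, with medians of 0.835%, 0.580%, 1.56% and 0.642%. Pcdhac2 was overlapped in every list under each of the peak filters named, and Pcdhgc3 lost its peak in mutant GSK343 under all 4. Pcdhga9 in WT and Pcdhgb7 and Pcdhga11 in the mutant were overlapped with GSK343 under the limits on q-value, p-value and fold. The direction of the genotype comparison with GSK343 depended on the setting. No paired analysis was possible because only pooled lists were used, 1 per group, and for the same reason no replicate could be left out.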

Other observations

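In the gamma cluster the peaks called with GSK343 fell at 2 distances from the gene starts, a pattern noticed after the values had been seen. Measured from the nearest preceding gamma start, the centres of 12 of the 19 peaks in the WT and mutant GSK343 lists lay between 223 and 1158 bp, and those of the other 7 between 1835 and 2175 bp. In WT GSK343 the numbers were 5 and 3, and in mutant GSK343 7 and 4. Pcdhga10 carried 1 peak at each distance in both lists, and Pcdhgb7 and Pcdhga11 did so in mutant GSK343. With DMSO, 3 of 24 centres in WT and 3 of 22 in the mutant lay in the interval between. The gamma genes have similar first exons, and whether read mapping or base composition moves with these positions was not tested.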
